A study of Mus musculus with 4 samples.

Results

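Gene-rich DNA that replicates late is the exception in mouse embryonic stem cells (mESCs), and 472 such segments of 50 kb are described here. They are the autosomal bins that hold at least 2 protein-coding gene starts of the GENCODE vM21 annotation and have a replication timing value (RT) at or under -2. RT is the log2 of early over late S-phase reads, so a lower value means later replication. The 472 bins are 10.4% of the 4548 autosomal gene-rich bins with a value (exact 95% binomial interval 9.51% to 11.3%). Of all 47928 autosomal bins, 38.7% were at or under the same limit. A further 17 gene-rich autosomal bins had no RT value and could not be placed. Since the members were selected on their RT and their number of gene starts, both are given as a description and were not tested.

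Population-based Repli-seq was done on diploid F121-9 cells, a hybrid cas/129 mESC line that carries 1 Castaneus and 1 musculus 129 homolog of each chromosome, cultured in N2B27 medium with 2i and LIF. Nascent DNA was labeled with BrdU, cells were sorted by DNA content, and 2 early and 2 late S fraction libraries were sequenced. The groups differ only in the fraction sorted, and the line is a single hybrid line without a second genotype or treatment. The authors deposited 1 RT value per bin that combines both replicates and both homologs, so no value has an error between replicates and the reads behind a bin are unknown. As a yardstick for scatter, late bins without a gene start differed from the mean of the 2 bins on either side by a median of -0.07 log2, with quartiles of -0.20 and 0.08. That yardstick describes how alike neighboring bins are and is not a measurement error. Differences in RT of that order between members are not read as an order. Genes of the pluripotency network lay outside the late bins. All 19 genes of that list had RT of 2.18 or higher, with 3.51 for the bin of Pou5f1, 3.35 for Sox2 and 3.17 for Nanog. RT does not measure expression, and no expression was measured here.

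As background, gene-dense, GC-rich and transcribed chromatin generally replicates early, while late replication is typical of gene-poor, AT-rich chromatin at the nuclear lamina. Some gene families expanded by tandem duplication, such as the odorant receptors, form clusters that lie in such AT-rich DNA and are silent in most cell types. Promoters of broadly used genes commonly overlap CpG islands, stretches where the CpG dinucleotide has kept its expected frequency, while promoters of many tissue-restricted genes have few CpGs.

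The sequences next to the gene starts show both kinds of promoter found in the late gene-rich bins. First shown are the spacers between gene starts of opposite strands that face away from each other, from the minority of members with CpG-rich starts. They are 3 of the CpG-richer spacers, chosen after their values were seen, and that of Mrpl50 and Zfp189 has only 4 CpGs in 82 bases. They are in mm10 (GRCm38), contain no annotated exon, and have each CpG in capitals.
Tmtc3 and Cep290 (chr10:100487351-100487557, plus strand): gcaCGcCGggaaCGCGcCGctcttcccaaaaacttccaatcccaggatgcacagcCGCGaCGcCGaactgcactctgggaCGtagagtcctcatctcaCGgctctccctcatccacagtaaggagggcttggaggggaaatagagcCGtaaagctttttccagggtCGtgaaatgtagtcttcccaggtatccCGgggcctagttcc
Stxbp4 and Cox11 (chr11:90638085-90638172, plus strand): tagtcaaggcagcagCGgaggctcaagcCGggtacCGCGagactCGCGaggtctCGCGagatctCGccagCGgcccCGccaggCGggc
Fam227b and Dtwd1 (chr2:126152005-126152140, plus strand): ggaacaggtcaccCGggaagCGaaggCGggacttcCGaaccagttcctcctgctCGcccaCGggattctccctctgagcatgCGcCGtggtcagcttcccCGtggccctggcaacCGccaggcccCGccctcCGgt
The spacer between Tmtc3 and Cep290 has 14 CpGs in 207 bases, the one between Stxbp4 and Cox11 has 12 in 88, and the one between Fam227b and Dtwd1 has 12 in 136. Their bins had RT of -3.32, -2.74 and -2.27. Shown next are the 200 bases before the start of the gene with the lowest observed over expected CpG ratio in each of 5 family lists, among genes with manual annotation and no exon in that stretch, on the strand of the gene and again with CpGs in capitals.
Olfr1048 (chr2:86240290-86240489, minus strand): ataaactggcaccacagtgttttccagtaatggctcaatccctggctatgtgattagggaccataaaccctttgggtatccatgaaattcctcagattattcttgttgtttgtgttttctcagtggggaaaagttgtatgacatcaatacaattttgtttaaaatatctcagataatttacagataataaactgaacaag
Lce1k (chr3:92807892-92808091, minus strand): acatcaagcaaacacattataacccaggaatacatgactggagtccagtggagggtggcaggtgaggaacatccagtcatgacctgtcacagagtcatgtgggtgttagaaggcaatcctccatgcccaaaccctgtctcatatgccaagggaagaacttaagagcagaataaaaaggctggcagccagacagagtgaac
Krtap9-5 (chr11:99948275-99948474, plus strand): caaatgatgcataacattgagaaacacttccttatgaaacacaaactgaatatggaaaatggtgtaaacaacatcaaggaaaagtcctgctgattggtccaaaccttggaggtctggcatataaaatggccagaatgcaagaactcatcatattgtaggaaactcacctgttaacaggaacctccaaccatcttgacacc
Defa22 (chr8:21162077-21162276, plus strand): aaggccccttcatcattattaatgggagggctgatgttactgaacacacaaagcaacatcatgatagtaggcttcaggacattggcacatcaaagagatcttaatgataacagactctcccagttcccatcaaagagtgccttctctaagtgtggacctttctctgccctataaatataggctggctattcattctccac
Prl2a1 (chr13:27801454-27801653, plus strand): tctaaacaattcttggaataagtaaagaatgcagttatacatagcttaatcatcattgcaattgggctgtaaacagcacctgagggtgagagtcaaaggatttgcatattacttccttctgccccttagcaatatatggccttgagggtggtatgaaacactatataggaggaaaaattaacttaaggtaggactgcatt
None of these 5 stretches contains a CpG, and therefore none has a capital letter. The bins of the 5 genes had RT of -2.14 (Olfr1048), -3.23 (Lce1k), -2.05 (Krtap9-5), -4.65 (Defa22) and -3.61 (Prl2a1). The lack of CpGs in them follows from how they were chosen. Over all 1175 member starts the median was 4 CpGs in the 1000 bases around the start, against 51 in early gene-rich bins.

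The share of bins at or under -2 was lower where gene starts were present, and it did not drop to 0 with more of them. It was 48.3% of the 34353 bins without a gene start and 16.1% of the 9027 with 1. With 2 starts it was 10.8%, with 3 starts 9.74% and with 4 starts 11.7%, and the exact intervals of these shares overlap. With 5 starts it was 6.90%, 10 of 145 bins. Beyond 5 starts the members were 1 of 44 bins with 6 starts, 0 of 25 with 7 and 2 of 19 with 8 or more. The median RT was -3.02 in members with 2 starts, -3.36 with 3, -3.39 with 4 and -2.74 in the 10 with 5. Over the 472 members RT had a Pearson's correlation of -0.07 and a Spearman's correlation of -0.14 with the number of starts. These are a description across bins, which share chromosomes and neighbors.

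**Figure D1:**
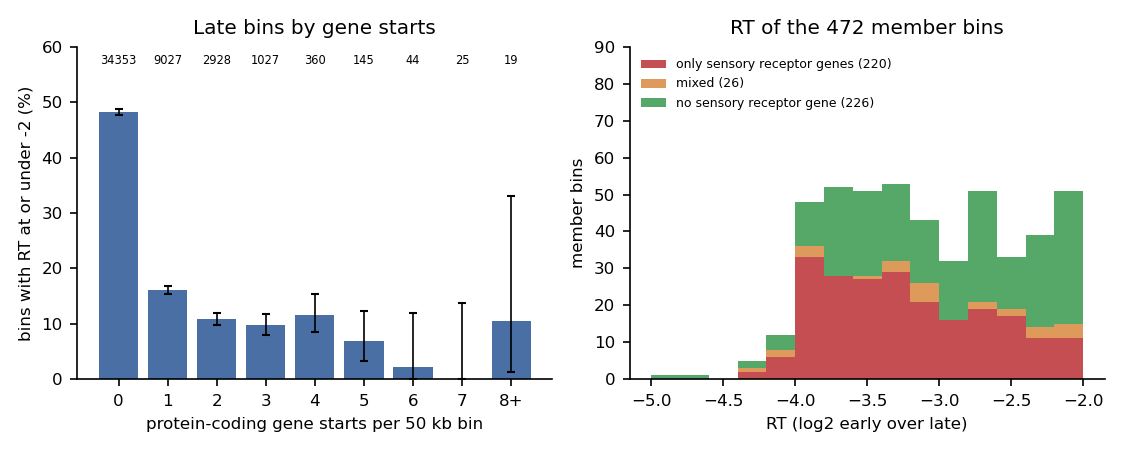
The left plot gives the percent of autosomal 50 kb bins with RT at or under -2 by the number of protein-coding gene starts, with exact 95% binomial intervals and the number of bins above each bar. The right plot is a stacked histogram of RT in the 472 members, where bins holding only sensory receptor genes have a median of -3.35 and bins without them -2.87.

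RT of the members ranged from -4.87 to -2.01 with a median of -3.15, and 56.4% of them were at or under -3. Late bins without a gene start had a lower median of -3.44, and late bins with 1 start had a median of -3.04. The members just inside the limit were the bin of Ispd and D630036H23Rik at -2.01, that of Tas2r144 and Gstk1 at -2.01 and that of Gm4841 and F830016B08Rik at -2.02. Just outside were the bin of Fpr-rs4 and Vmn2r124 at -1.99992, that of Cog6 and Lhfp at -1.998 and that of Vmn1r231, Vmn1r232 and Ppp2r1a at -1.99. Bins on either side of the limit were thus nearly equal in RT. Of the early gene-rich bins, 2839 had RT at or above 2, and 1237 gene-rich bins lay between the limits.

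Sensory receptor genes made up 51.3% of the 1175 gene starts in members, 603 in number (exact 95% interval 48.4% to 54.2%). In early gene-rich bins they were 56 of 7608 starts (0.736%), in gene-rich bins between the limits 16.7%, and over all autosomal genes with RT 7.21%. The intervals throughout treat starts or bins as independent draws and cover counting only, although genes of a cluster share their origin and position. By bin, 220 members held sensory receptor genes alone, 226 held none and 26 were mixed. The median RT was -3.35 in the first of these kinds of bin, -2.87 in the second and -3.04 in the third, with overlapping ranges.

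Odorant receptors, the G protein-coupled receptors of olfactory neurons, contributed 502 starts in 197 members on 11 chromosomes, with member RT from -4.34 to -2.02. Over the genome 591 of 1128 odorant receptor genes (52.4%) were in bins at or under -2, beside 12.7% of all autosomal genes with RT. The list's RT spanned -4.36 to 3.62, so that membership did not extend to the whole family. Vomeronasal receptors, which detect pheromones, contributed 76 of their 327 genes, in 39 members with a median RT of -3.03. A further 13 vomeronasal genes lie in bins without RT. Taste and trace amine receptors contributed 25 of their 53 genes, in 10 members, all on chromosome 6, where bitter taste receptor genes of the Tas2r family lie. Their lowest bin, with Tas2r120, had RT -3.99, and the bin with 5 of them, Tas2r104 to Tas2r107 and Tas2r114, had -2.29.

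The 56 sensory receptor genes in early gene-rich bins show the other end of the same families. They comprised 50 odorant receptors on 13 chromosomes, 4 Vmn1r genes on chromosome 7 and the taste receptor genes Tas1r1 and Tas1r3 on chromosome 4. On chromosome 17, Olfr90 to Olfr97 supplied 7 of these odorant receptors, with bins from 2.31 to 3.62. On chromosome 7, Olfr543 to Olfr545 lay in a bin with RT 2.67, on the flank of the late cluster that holds the beta-globin genes. Late odorant receptor bins lie on chromosome 17 as well, with -2.23 at Olfr115 and Olfr116.

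Proteins of the epidermal cornified envelope formed the longest unbroken run of members. It covered 15 bins and 42 gene starts from chr3:92300001-93050000, with RT between -3.93 and -3.07. The small proline-rich genes at one end had the lower values, with -3.78 for Sprr2b and Sprr2d, -3.83 for Sprr2e, Sprr2f and Sprr2h, and -3.93 for Sprr3 and Sprr1a. The bin of Ivl, which encodes involucrin, had -3.36. Among the late cornified envelope (Lce) genes RT was highest at Lce1b, Lce1a2, Lce1c and Lce1d, -3.07, and lower again at Lce1l, -3.79. RT thus varied within the run without leaving the late range. All 36 genes of the cornified envelope list were at or under -2, and 35 of them were in members. That list was written from symbol patterns and does not hold every gene of this locus. Beyond the run, the bins of Lor at -2.25, Flg2 at -2.50 and Flg, encoding filaggrin, at -2.27 were also late but held 1 start each. The bins of Hrnr at -1.92, Rptn at -1.36 and Tchh at -0.86 were above the limit.

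Keratin-associated proteins, which cross-link keratin in hair, came in a pair of clusters of unequal lateness. Of the list with keratins, 33 of 113 genes were in members. On chromosome 16, 9 members between 88600001 and 89450000 had RT from -4.05 (Krtap6-3) to -2.65 (Krtap13-1), and every one of the 17 bins of that stretch was late. On chromosome 11, members ranged from -2.71 to -2.05, and a bin with 7 starts from Gm11938 to Krtap4-7 was at -1.96, outside the limit. The bin of Krtap3-1 and Krtap1-5 had 8 starts and RT -2.13. It is the member with the most starts other than the 9 predicted genes at the start of chromosome 9. On both sides of the chromosome 11 cluster lie keratin genes, whose RT was higher with distance. It was -1.39 at Krt39 and Krt40, 0.84 at Krt10, and 2.84 at Krt14 and Krt16, which encode keratins of basal and stressed epidermis. The ranges of the chromosome 11 and chromosome 16 members overlapped at their ends, with -2.71 and -2.68 in the latest bins of the first and -2.65 in the earliest bin of the second.

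**Figure D2:**
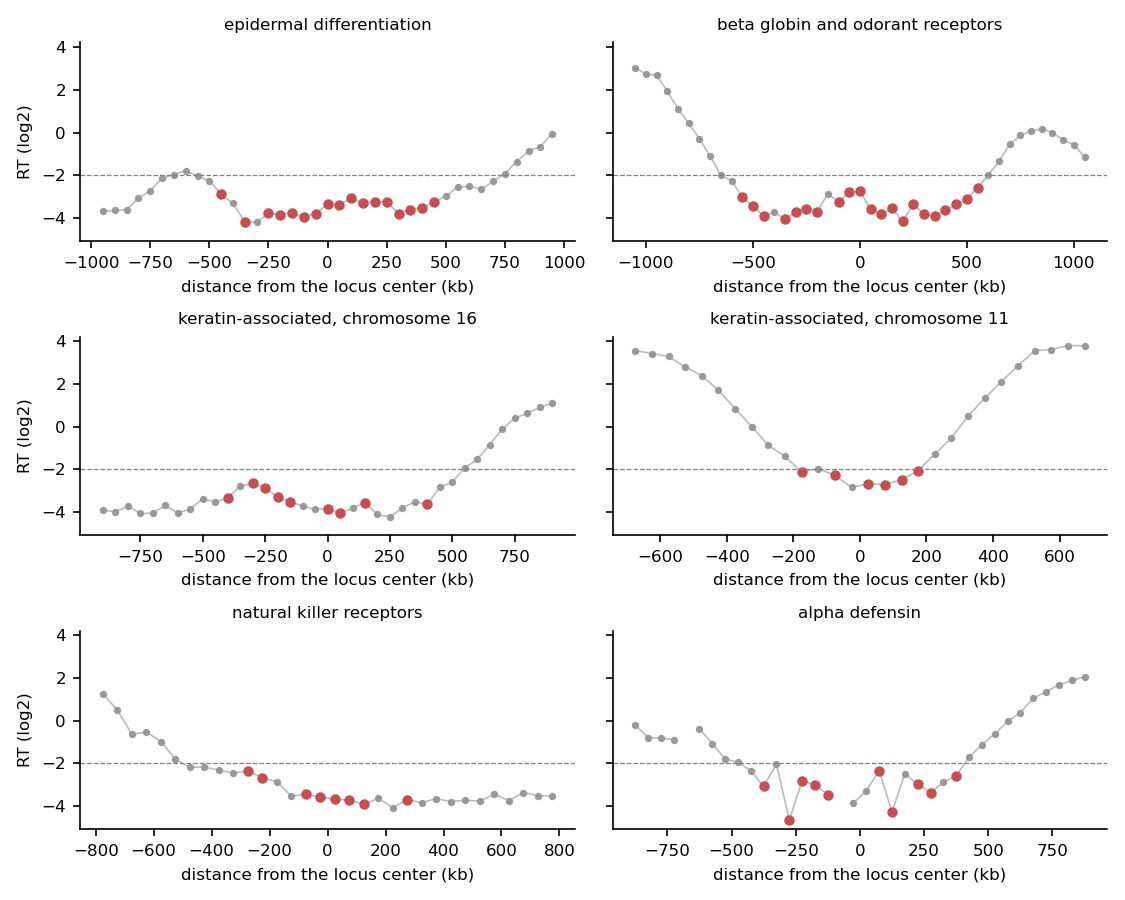
RT (log2 early over late) of each 50 kb bin is plotted against the distance from the center of 6 loci, with members in red, other bins in grey and the limit of -2 as a dashed line. The epidermal and chromosome 16 clusters stay late throughout, the chromosome 11 keratin-associated cluster is a valley between early keratin genes, and the alpha defensin bins jump between -4.65 and -2.03, with a missing bin shown as a gap.

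The beta-globin genes, which encode the beta chains of haemoglobin, lie within the second longest run of members. It covered 14 bins and 47 starts from chr7:103300001-104000000, of which 41 were sensory receptor genes. The bin of the adult genes Hbb-bt and Hbb-bs and of Hbb-bh2 and Hbb-bh1 had RT -3.61. The bin of the embryonic gene Hbb-y, with Olfr66 and Olfr64, had -3.36. Both differed from the mean of their flanking bins by -0.06, so that globin and odorant receptor bins were alike in RT. With neighboring members closer than 500 kb joined, the locus held 21 members and 69 starts, and all its 23 bins were late.

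Larger still were a pair of odorant receptor loci on chromosome 2. The locus chr2:87750001-90150000 held 35 members with 97 starts, 95 of them odorant receptors, with member RT from -4.05 to -2.06. The locus chr2:85400001-87250000 held 29 members with 81 starts, 80 of them odorant receptors, from -4.27 to -2.14. Chromosome 2 had 86 members in all, the most of any autosome. Chromosome 7 had 76 members, chromosome 6 had 48 and chromosome 3 had 32, against 5 on chromosome 18 and 2 on chromosome 15. As a share of gene-rich bins, members were 23.0% on chromosome 6, 20.5% on chromosome 2 and 1.14% on chromosome 15. In all, the 472 members formed 293 runs of adjacent bins and 152 loci, and 220 members had no member in a neighboring bin.

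Immune and defense families added further clusters. Defensins, antimicrobial peptides that include the alpha defensins of Paneth cells, gave 18 starts in 9 members, all on chromosome 8. These were 28.1% of the 64 genes of their list, beside 5.67% of all autosomal genes with RT. Another 18 defensin genes were in early gene-rich bins and 13 in gene-rich bins between the limits. RT in the chromosome 8 members did not follow a smooth course. The bin of Defa22 and Defa31 had -4.65, the bin of Defa20 and Defa32 had -2.34, and the adjoining bin of Defa37 and Defa28 had -4.28. Lectin-like receptors of natural killer and myeloid cells gave 14 starts in 8 members of chromosome 6. Their list has 56 genes, of which 5 were in early gene-rich bins. RT was -2.35 at Clec12a, -3.67 at Klrk1, which encodes NKG2D, and -3.91 at Klri1 and Klri2. Along that locus the later bins lie on the side of the Klra genes. Chemokine genes were also present without a list of their own, with RT of -3.29 at Ccl2 and Ccl7, -2.81 at Cxcl5, Ppbp and Pf4, and -3.23 at Cxcl2. Of the type I interferons, 5 of 20 were in members, with RT of -2.25 and -2.03.

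Other groups were genes of placenta, mammary gland and secretory organs. The prolactin family had 25 of its 26 genes at or under -2, of which 12 were in 6 members on chromosome 13 between -3.96 and -3.36. The bin of Prl, the pituitary hormone, and Prl3d1, a placental lactogen, had -3.59. All 5 casein genes, which encode the main milk proteins, were late, and 3 were in members. The bin of Csn1s1 and Csn2 had -3.15. Serpins, which inhibit proteases, gave 19 of their 60 genes, in 9 members from -4.21 (Serpinb3b and Serpinb3c) to -2.05 (Serpinb1a and Serpinb1c). Secretoglobins, small secreted proteins that include androgen-binding proteins, gave 17 of their 34 genes, in 9 members with a median of -2.69. In early gene-rich bins were 5 serpin genes and 1 secretoglobin gene. Pancreatic genes were seen among genes of no list, with -3.82 at the amylase genes Amy2a5 and Amy2a4 and -3.49 at the trypsin genes Try4 and Try5. Protocadherins of the beta cluster, cell adhesion proteins of neurons, gave 7 starts in 2 members of chromosome 18. RT was -2.40 at Pcdhb1 and Pcdhb2 and -2.17 at Pcdhb3 to Pcdhb7. These 7 are 7.78% of the 90 cadherin and protocadherin genes, and 24 of the 90 were in early gene-rich bins. Of 100 conjugating and detoxifying enzyme genes 5 were in members, near the 5.67% of all autosomal genes with RT. In early gene-rich bins there were 20 of these enzyme genes. RT was -3.48 at the sulfotransferase genes Sult1d1 and Sult1e1 and -2.89 at Ugt2a1 and Ugt2a2.

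**Figure D3:**
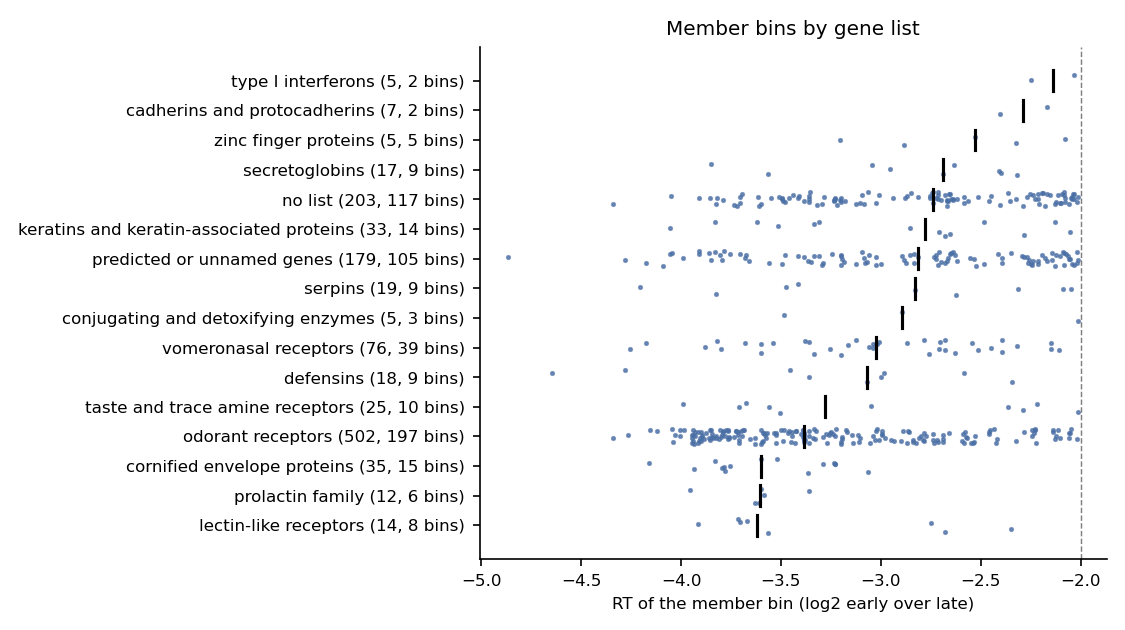
RT (log2 early over late) of each member bin is plotted for the gene lists with at least 5 starts in members, with a black line at the median and the number of starts and of bins in brackets. Vertical scatter within a row carries no value. Medians lie between -3.62 (lectin-like receptors) and -2.14 (type I interferons).

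Over all 20732 autosomal genes with RT, 12.7% were in bins at or under -2 and 5.67% were in members, and for genes of no list these shares were 6.97% and 1.37%. Some other clustered families had no gene in late bins. Histone genes, 67 on the autosomes, had 0 in bins at or under -2, and so had the 34 genes of MHC class I and II, 19 Ms4a genes and 18 Wap four-disulfide genes. Of 416 zinc finger genes 5 were in members and 169 in early gene-rich bins. Low counts in the lists of basic cell functions are to be read against the 1.37%. There were 0 of 95 ribosomal protein genes, 0 of 39 proteasome genes and 1 of 100 oxidative phosphorylation genes in members, the last being Cox11, an assembly factor of cytochrome c oxidase. Developmental transcription factors were 3 of 199. Among them, Myf5 and Myf6, which direct muscle determination and differentiation, shared a bin with RT -3.73.

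In median GC content the members as a whole were like late bins without a protein-coding gene start and unlike early gene-rich bins. The median was 38.5% (order-statistic 95% interval 38.3% to 38.7%), against 38.4% in late bins without a gene start, 39.6% in late bins with 1, 42.7% in gene-rich bins between the limits and 47.6% in early gene-rich bins. Members with sensory receptor genes alone had 37.4%, and members without them 40.1%. CpGs numbered 5.02 per kb in members and 14.1 in early gene-rich bins. Within the members RT was higher where GC was higher, with a Pearson's correlation of 0.42 and a Spearman's of 0.42. Pearson's correlation was 0.32 among the bins of sensory receptor genes alone, 0.37 among members without them, and 0.37 among 16597 late bins without a gene start. These values describe bins that share base composition with their neighbors.

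Members of sensory receptor genes alone had more pseudogenes and more repeats than the comparison bins, and members without such genes differed less. Over all members a median of 42.4% of the bases was repeat-masked in the assembly. It was 36.8% in late bins without a gene start, 34.9% in those with 1 and 28.7% in early gene-rich bins. It was 46.1% in members of sensory receptor genes alone and 37.3% in members without them. A pseudogene started in 40.5% of members, in 14.8% of late bins without a gene start and in 20.8% of early gene-rich bins. In members of sensory receptor genes alone this share was 50.5%, and in members without them 31.0%. Late bins with 1 start had 27.7%, and gene-rich bins between the limits had 28.0%. Long noncoding RNAs started in 7.42% of members, 7.68% of late bins without a gene start, 16.8% of those with 1 and 32.1% of early gene-rich bins. Among members the share was 2.73% in those of sensory receptor genes alone and 11.9% in those without them.

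The gene starts themselves differed from those of early gene-rich bins. A start was called CpG-rich where the 500 bases on either side had at least 50% GC and an observed over expected CpG ratio of at least 0.6. In members 57 of 1175 starts (4.85%) were CpG-rich, against 54.2% in early gene-rich bins, 34.6% in those between the limits and 20.9% in late bins with 1 start. The count was 0 of 603 for sensory receptor genes, 3 of 186 for genes of the other family lists, 8 of 179 for predicted genes and 45 of 203 (22.2%) for genes of no list. Among genes of no list the share was 31.0% in late bins with 1 start and 57.4% in early gene-rich bins. Single coding exons were found in 65.5% of member genes, and in 96.5% of the sensory receptor genes and 32.9% of the others, against 8.94% in early gene-rich bins. Member genes had a median span of 5644 bases against 12559, but the member genes of no list were much like early ones of no list, with 13139 against 13537. Genes of no list in late bins with 1 start were longer, with a median span of 71857 bases.

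**Figure D4:**
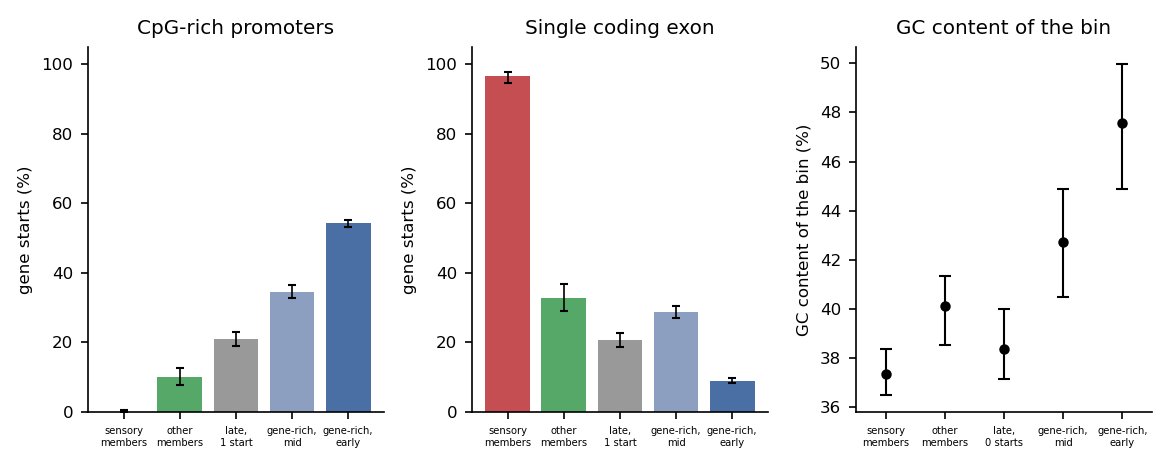
The bars give the percent of gene starts that are CpG-rich (left) and of genes with a single coding exon (center), with exact 95% binomial intervals, and the points give the median GC content of the bins with quartiles (right). Starts of sensory receptor genes in members have no CpG-rich promoter, other member starts 9.97% and early gene-rich starts 54.2%.

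The motif TATAAA, the core of the TATA box, was searched in the 250 bases before to 50 after each start, on both strands, where it reads TTTATA on the other strand. It was present at 35.9% of member starts against 12.7% of the 20807 autosomal starts. In the keratin and cornified envelope lists the share was 60.3%, among sensory receptor genes 37.3%, and among CpG-rich member starts 1 of 57. In the 40 bases before the start, on the strand of the gene alone, it was present at 39.7% of keratin and cornified envelope starts, 4.64% of sensory receptor starts and 2.85% of all autosomal starts. AT-rich DNA holds these letters more often, so that a match is a description of the sequence and not a site. Of the stretches printed, those of Krtap9-5 and Defa22 each hold TATAAA once, on the strand of the gene.

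Neighboring starts in members lay on the same strand in 453 of 703 pairs (64.4%), against 43.4% in early gene-rich bins. Pairs from the same list were 62.4% of member pairs and 3.69% of early pairs. Within pairs of the same list the shares on the same strand were 69.0% and 67.0%. In the other pairs they were 56.8% in members and 42.5% in early gene-rich bins. Only sensory receptor and family lists counted as shared, so the other pairs include pairs of predicted genes and of genes of no list. Without sensory receptor genes, predicted genes were 31.3% of member starts and 6.99% of early gene-rich starts. Divergent starts less than 1 kb apart with no overlap of the genes, an arrangement of bidirectional promoters, were found for 22 member genes (1.87%) against 13.7% of starts in early gene-rich bins. Among CpG-rich starts alone the shares were 28.1% in members and 20.9% in early gene-rich bins. With any start of the opposite strand within 1 kb counted, also where the 5′ ends overlap as in Dram2 and Cept1 or Kif18a and Mettl15, the number in members was 44 (3.74%) against 22.4%, and among CpG-rich starts 35 of 57 (61.4%) against 33.7%. These comparisons were chosen after the values had been seen. The rule of at least 2 starts selects bins whose starts can pair, in members and early gene-rich bins alike. Late bins with 1 start had 0 of 304 CpG-rich starts in a divergent pair without overlap. Such a bin can share a pair only across its border, so this count is no comparison. The higher shares among CpG-rich member starts rest on 57 starts, were not tested, and are not read as a trait of late DNA. Both starts of a pair are counted.

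In 39 members (8.26%) at least 1 start was CpG-rich, against 79.4% of early gene-rich bins. The bin of BC030500 and Galntl6, which encodes a glycosyltransferase-like protein, had RT -3.91. The bin of Lipi and Rbm11 had -3.86, that of Nt5c1b and Rdh14 -3.82, and that of Uts2b and Ccdc50 -3.79. The bin of Tnni3k, Fpgt and Lrriq3, in which Fpgt and Lrriq3 start 31 bases apart, had -3.71. Brinp2 and Astn1, both expressed in neurons, had -3.61. Gabrb1 and Gabra4, which encode subunits of the GABA-A receptor, had -3.59, and both of their starts were CpG-rich. As a group, members with a CpG-rich start had a median RT of -2.65, against -3.19 for members without one, and a median of 28.3% repeat-masked bases against 43.8%. The members without one include all 220 bins of sensory receptor genes alone, with medians of -3.35 and 46.1%. In the 188 members with neither a sensory receptor gene nor a CpG-rich start, the median RT was -2.99.

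There were 11 divergent pairs without overlap, and in 8 both starts were CpG-rich. They include genes of general cellular function. Tmtc3 and Cep290, a gene of the ciliary transition zone, start 208 bases apart, 3750 kb from the nearest bin with RT above 0. Stxbp4 and Cox11, whose spacer is printed above, start 89 bases apart and lie 1300 kb from such a bin. Lig4, which encodes the DNA ligase of nonhomologous end joining, and Abhd13 start 21 bases apart in a bin with RT -2.35, 0.37 above the mean of its flanks. Mrpl50, a mitochondrial ribosomal protein gene, and Zfp189 start 83 bases apart at RT -2.32. The remaining CpG-rich pairs were Slf1 and 2210408I21Rik at -2.62, Fam227b and Dtwd1 at -2.27, Acp1 and Sh3yl1 at -2.26, and Fpgt and Lrriq3. Of the 11 bins, 5 (45.5%) were above the mean of their flanks, as were 46.2% of members with a CpG-rich start and 31.6% of members without one. The median difference from the flanks was -0.01 in the bins of divergent pairs, -0.02 in members with a CpG-rich start and -0.11 in members without one.

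Most members lay well inside late domains. The median distance to the nearest bin with RT above 0 was 600 kb (order-statistic interval 550 to 700 kb), against 950 kb for late bins without a gene start and 650 kb for late bins with 1. Within 200 kb of such a bin were 7.20% of members and 3.21% of late bins without a gene start. The unbroken stretch of bins with RT below 0 around a member had a median length of 2350 kb, against 3850 kb for late bins without a gene start. A member's RT was below the mean of its 2 flanking bins on either side by a median of 0.10, and 155 members (32.8%) were above their flanks. Bins chosen for low RT tend to lie below their flanks, and the share above them was 37.7% in late bins without a gene start, 38.1% in late bins with 1 and 48.3% in all autosomal bins. At 500 kb on the left and right, the median RT around bins of sensory receptor genes alone was -2.26 and -2.28. Around members with a CpG-rich start it was -2.67 and -2.39, against -2.65 in those bins themselves. The course between was not flat, since at 200 kb on the left and right the median there was -3.08 and -3.16. Around bins of sensory receptor genes alone it was -3.35 and -3.07 at 200 kb, against -3.35 in the bins.

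**Figure D5:**
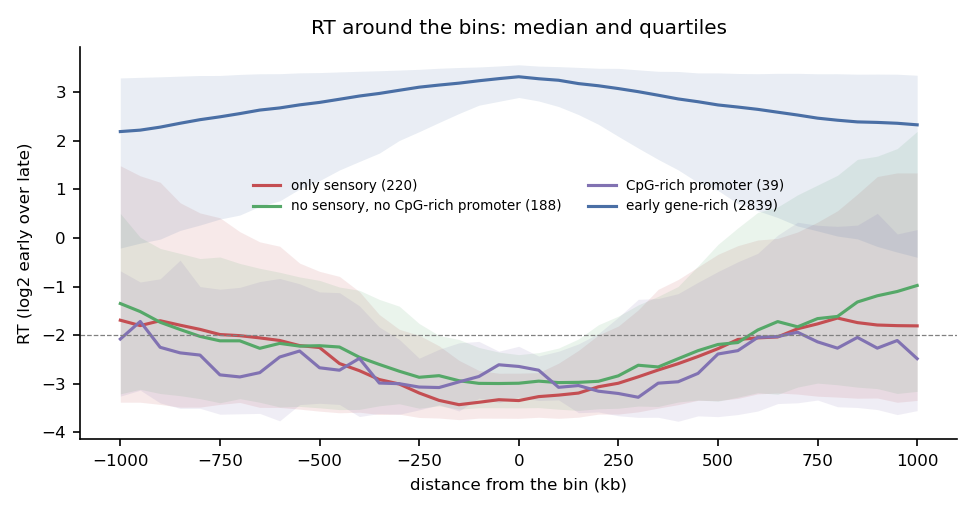
Median RT (lines, log2 early over late) and quartiles (shading) are plotted against the distance from the bin for members of sensory receptor genes alone, other members without a CpG-rich promoter, members with a CpG-rich promoter and early gene-rich bins, with the number of bins in brackets. The medians of the first 3 groups are at -0.98 or lower out to 1000 kb, while early gene-rich bins have their maximum, 3.32, at the bin itself.

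Some members stand apart from the bins around them. In 15 members RT differed from the mean of the flanks by more than 1 log2, 13 of them below and 2 above. Furthest below was the bin of Gm3317 and Gm8271 on chromosome 14, with RT -3.20 against -0.95 in its flanks. The bin of Vmn1r163 and Gm8720 on chromosome 7 followed, at -3.20 against -1.17. Furthest above was the bin of A430089I19Rik, Gm6502 and AA792892 on chromosome 5, at -2.09 against -4.35. The lowest member of all, with 6 predicted genes on chromosome 10 (Gm6763, Gm8764, Gm21304, Gm21312, Gm20765 and Gm4340), had -4.87 against -3.80. These 15 bins hold vomeronasal receptors, alpha defensins and predicted genes. Their median repeat-masked share was 54.2%, against 42.1% in the other 457 members, and 6 of the 15 had a missing bin within 2 bins, against 11 of 457. The bin with the most starts, 9 predicted genes from Gm10722 to Gm10715 at chr9:3000001-3050000, had RT -2.27 and was 86.2% repeat-masked. In 4 members, of which 1 is among these 15, RT was equal to 9 decimals to that of another bin. The part of repeats and missing neighbors in the RT of these bins was not tested. Without these 18 bins 454 members were left, and 52.2% of their starts were sensory receptor genes.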

How the data were processed

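The data are Repli-seq of diploid F121-9 mESCs, with 2 early and 2 late S fraction libraries. The authors converted reads of the early and late fractions to RPM and deposited 1 log2 early over late value (RT) per 50 kb bin of mm10. The submitters' processing notes name Bowtie2, SAMtools and bedtools without versions or roles. How replicates were combined, and any smoothing or filter on bins, is not given in the sources used here. Read depth is unknown.

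Gene starts were the 5′ ends of protein-coding GENCODE vM21 genes, counted per bin. GC content, CpGs, repeat-masked bases (lower case in the assembly) and promoter sequences were read from GRCm38.p6, and printed sequences come from that assembly. Gene lists were written from symbol patterns. The member bins, lists and comparisons were chosen with earlier results of these data known. Flanks were 2 bins on either side, loci joined members under 500 kb apart, and a late domain was a stretch with RT below 0, bridging up to 4 missing bins. Named bins were those with the most starts, the lowest RT, the longest runs, the largest difference from their flanks or the most starts of a list, bins at the limit, the latest bins with a CpG-rich start, and genes of the core lists. Other bins were picked as examples after their values were seen. One gene that this rule names is not reported here.

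Shares have exact binomial intervals and medians have order-statistic intervals, both at 95%. No test was run, because bins were chosen by RT and neighboring bins are not replicates. The steps were tested on simulated bins. Calculations used Python 3.11.15 with numpy 2.4.6, pandas 2.3.3, scipy 1.17.1 and matplotlib 3.10.9.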

Additional observations from a re-analysis of the deposited data

How the results depend on the processing

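No paired analysis was possible because the deposited value of each bin combines the replicates and both fractions. For the same reason no replicate could be left out, and those alternatives were not run. Of 70 recomputed values, 45 stayed within 1.5 times the count or within the interval given in the report, 25 moved beyond it, and none changed sign.

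With the limit at RT -3 there were 266 members, 5.85% of gene-rich bins, with 60.3% sensory receptor genes, a median GC of 37.9%, 2.22% CpG-rich starts, a median distance of 750 kb to RT above 0 and 39.5% of members without a neighboring member. With the limit at -1.5, 13.1% of gene-rich bins were members, with a median GC of 38.7% and 7.30% CpG-rich starts. With at least 3 gene starts there were 155 members, with 61.4% sensory receptor genes, a median GC of 38.0% and 0.924% CpG-rich starts. Without sensory receptor genes there were 226 members, 5.55% of gene-rich bins, with a median GC of 40.1%, 10.3% CpG-rich starts and 68.1% without a neighboring member. Without automatically annotated genes and Gm symbols the sensory share was 59.96% and the median GC 38.3%. With a running median over 5 bins the median distance was 800 kb and the difference from the flanks -0.0614. With flanks of 5 bins that difference was -0.29. With CpG limits of 0.75 and 55% GC, 2.21% of starts were CpG-rich. The members also differed little without bins near missing bins (454) and with X included (491).

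What limits these values is that 1 profile of 1 line was deposited without reads per bin, so that no difference between bins can be set against the spread of replicates.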

Other observations

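Chromosome X, which is outside the autosomal bins described, held 19 gene-rich bins at or under RT -2 among 132, or 14.4% (exact 95% interval 8.89% to 21.6%). Their RT ranged from -4.16 to -2.02 with a median of -2.78, and their median GC content was 40.9%. They held 47 gene starts, of which 0 were sensory receptor genes, 11 were predicted genes and 2 were CpG-rich. The lowest was the bin of Col4a6 and Col4a5, which encode chains of type IV collagen, at -4.16. Genes expressed in the germ line were seen among them. The bin of 9 H2al1 genes, testis histone variants from H2al1b to H2al1j, had -2.94, the bin of Magea6 and Magea3 had -2.90, and the bin of the homeobox genes Rhox8 and Rhox7b had -2.02. The X bins had no counterpart to the receptor clusters that fill the autosomal members.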
